A study of Mus musculus with 10 samples.

Results

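The genes described here are the metallothioneins Mt1 and Mt2 and 8 genes of zinc, manganese and copper handling in mouse liver: Mtf1, Slc30a1, Slc30a10, Slc39a14, Slc39a4, Slc39a8, Cp and Atp7b. They were chosen by name, and every probe set that the platform annotation ties to one of these symbols alone was kept whatever its level. This gave 30 of the 45101 probe sets on the array, covering 10 of the 18194 genes named there, and 20 of the 30, at least 1 for each gene, averaged 4 log2 units or more across the arrays and were tested. Probe sets of one gene are numbered by their mean, highest first.

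The values come from livers of 10 female mice, with 1 extract and 1 array per animal, 5 carrying human APOE3 and 5 carrying human APOE4. All were homozygous for a targeted replacement in which the human gene is driven by the mouse Apoe promoter, so neither group has the mouse protein and no group has the unaltered gene. The APOE3 line is B6.129P2-Apoetm2(APOE*3)Mae N8. For APOE4 the line is B6.129P2-Apoetm3(APOE*4)Mae N8. At 3 months of age, on C57BL/6, all had been fed 41% of energy as milk fat and 2 g/kg cholesterol, for 6 weeks by one label and 2 months by another. Apolipoprotein E is a lipid-carrying protein of plasma lipoproteins, and the comparison asks how the liver transcriptome differs between carriers of its isoforms.

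Metallothioneins are small cysteine-rich proteins that bind zinc and copper in the cytosol, and the liver is a main site of their synthesis. When free zinc rises, the zinc finger factor MTF-1 binds metal response elements and drives Mt1, Mt2 and the zinc exporter gene Slc30a1; glucocorticoids and interleukin 6 also raise the metallothionein genes. ZIP proteins (Slc39a genes) bring zinc and manganese into the cytosol, ZnT proteins (Slc30a genes) carry metal out of it, and in hepatocytes copper is loaded onto ceruloplasmin or sent to bile by the ATPase encoded by Atp7b.

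The promoters of Mt1, Mt2 and Slc30a1 are shown because these genes are the textbook targets of MTF-1 and their transcripts are set against each other across animals below. RefSeq windows of build GRCm38.p6 were found for 8 of the 10 genes; Slc39a14 and Slc39a4 are named only. Each stretch holds the last 130 bases before the annotated start, on the plus strand, at chr8:94178959-94179088 for Mt1, chr8:94172488-94172617 for Mt2 and chr1:191906651-191906780 for Slc30a1. Capitals mark matches to the metal response element core, searched as TGCACNC and TGCGCNC on both strands.

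Mt1: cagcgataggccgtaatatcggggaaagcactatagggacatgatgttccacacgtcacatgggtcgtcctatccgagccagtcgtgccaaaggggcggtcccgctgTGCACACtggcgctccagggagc
Mt2: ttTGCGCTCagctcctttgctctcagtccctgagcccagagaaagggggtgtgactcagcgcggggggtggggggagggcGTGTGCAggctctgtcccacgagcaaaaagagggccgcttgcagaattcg
Slc30a1: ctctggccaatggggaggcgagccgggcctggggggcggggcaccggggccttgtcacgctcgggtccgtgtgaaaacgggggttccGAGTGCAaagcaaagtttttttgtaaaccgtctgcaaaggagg

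The first base of each core lies 23 bases before the start in Mt1, 128 and 50 in Mt2 and 43 in Slc30a1. In the whole 250 bases before the start, Mt1 held 1 core, Mt2 held 3, Slc30a1 held 1 and Slc30a10 held 3. In Slc30a10, 2 of the 3 overlap as the same stretch read on opposite strands. Atp7b had 1, Slc39a8 had 1 in 1 of its 2 windows, and Mtf1 and Cp had 0. Of all 32851 promoter windows, 21.4% held at least 1 such core in these 250 bases and 1.26% at least 3. The windows also run past the start, and with that part counted Mt1 held 3 cores, Mt2 4, Slc30a1 2 and Slc30a10 3. The added Mt1 cores begin at -2 and -20 by the same count, so past the annotated start and outside the printed stretch. Whether Mt1 RNA begins at the annotated start in these livers was not tested. No share over all windows was taken for this longer stretch. A match says only that these letters are there. In RefSeq's gene order on chromosome 8, Mt2 and Mt1 are neighbours.

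The metallothionein transcripts had lower means in APOE4 livers and varied widely between animals of one genotype. Mt1, read by its probe set 1, was at 11.82, 12.36, 12.98, 12.32 and 12.39 log2 in APOE3 replicates 1 to 5. In APOE4 replicates 1 to 5 it was at 11.28, 11.98, 11.67, 12.36 and 11.22. APOE4 replicates 1, 3 and 5 lay below every APOE3 liver, while APOE4 replicates 2 and 4 lay inside the APOE3 range, so the groups overlapped. The means were 12.37 ± 0.41 (SD, n = 5) and 11.70 ± 0.48 (SD, n = 5), a log2 difference of -0.67, or 1.59-fold lower in APOE4 (95% confidence interval -1.22 to -0.12), and it did not pass (limma, unadjusted p = 0.0211, adjusted p = 0.580). In whole liver, fewer cells of a type and less RNA per cell cannot be told apart.

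Mt2, the neighbouring metallothionein gene, showed the same arrangement of animals. It was at 11.66, 12.17, 12.57, 12.14 and 12.00 log2 in APOE3 replicates 1 to 5, and at 10.27, 11.74, 11.23, 12.33 and 11.05 in APOE4 replicates 1 to 5. Again APOE4 replicates 1, 3 and 5 were below all APOE3 livers and replicates 2 and 4 were not. The lowest value of all belonged to APOE4 replicate 1, and the SD was 0.77 in APOE4 against 0.33 in APOE3. The means of 12.11 and 11.32 gave a log2 difference of -0.78, or 1.72-fold lower in APOE4 (95% confidence interval -1.50 to -0.07), which did not pass either (limma, unadjusted p = 0.0351, adjusted p = 0.588). Without APOE4 replicate 1 the Mt2 difference was -0.52.

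Of the 20 tested probe sets these 2 alone had an unadjusted p under 0.05 in limma. Over all 14732 tested probe sets 8.0% did, so this count was near the background. No tested probe set of the 10 genes passed the adjusted threshold of 0.05 (0 of 20), which 0.0815% of all tested probe sets did (0.0339% higher and 0.0475% lower in APOE4). In 0 of 20 were the genotypes free of overlap, against 2.02% of all tested. Of the 20 differences 10 were above 0 and 10 below, with a median of -0.008 log2, while over all tested the median was 0.047 and 60.9% were above 0.

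**Figure D1:**
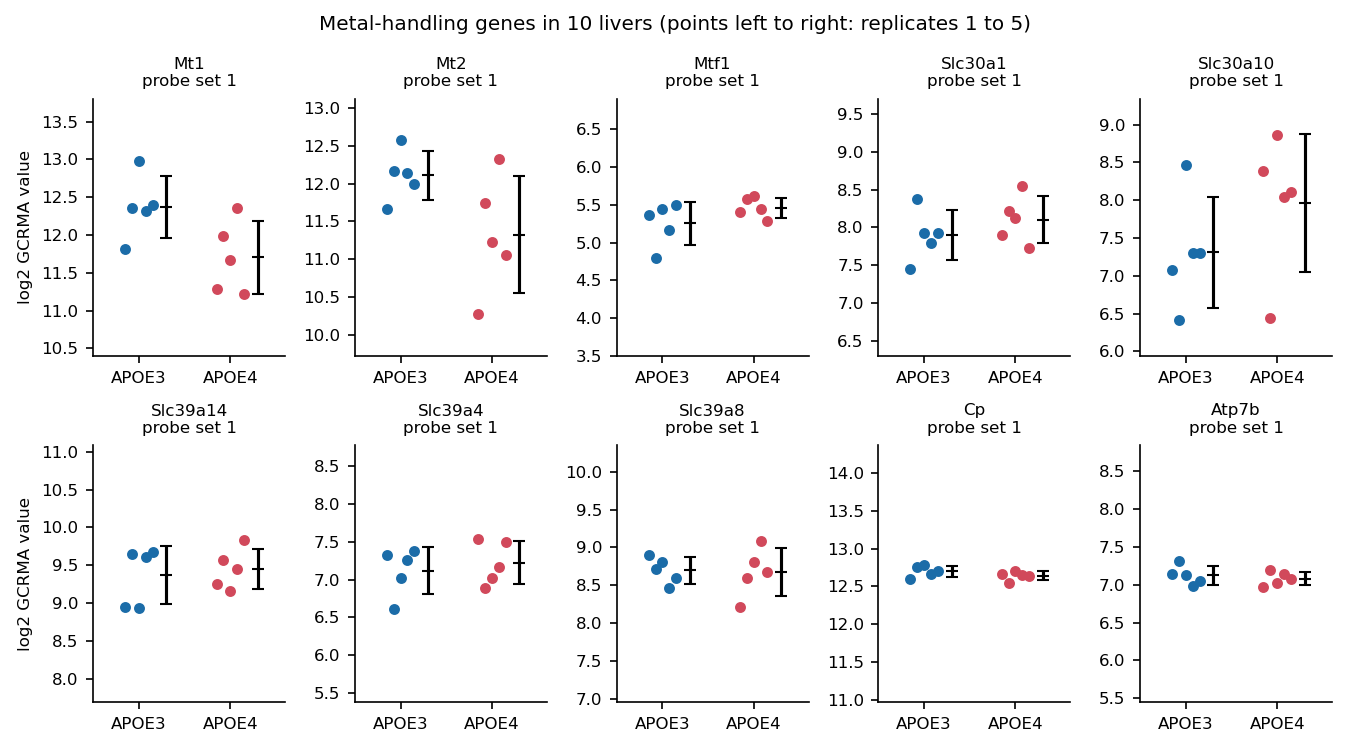
Log2 value (vertical axis, the same span of log2 units in each panel) of the highest probe set of each of the 10 genes by genotype; points are animals, replicates 1 to 5 from left to right, and bars are mean ± SD of 5 animals. Mt1 and Mt2 sit lower in 3 APOE4 livers than in any APOE3 liver, Slc30a10 spreads most among the transporters, and Cp and Atp7b hardly vary.

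Mt1 probe set 2 ordered the animals differently from the first. It was at 5.52, 8.05, 6.19, 9.33 and 7.89 log2 in APOE3 replicates 1 to 5 and at 5.93, 7.65, 4.33, 7.81 and 6.71 in APOE4. APOE3 replicate 3, the highest liver by the first probe set, was here the lowest APOE3 liver but for replicate 1, and APOE3 replicate 4 was the highest of all 10. The difference was -0.91 (95% confidence interval -2.66 to 0.84; limma adjusted p = 0.790). It was -0.42 without APOE3 replicate 4, -0.37 without APOE4 replicate 3 and -1.38 without APOE3 replicate 1. Its pooled SD within genotype, 1.48, exceeded that of 99.7% of tested probe sets. Over the 10 animals the correlation of the Mt1 probe sets was r = 0.43 (permutation p = 0.214; adjusted p = 0.285 over 5 genes with such a pair) and rho = 0.49 (permutation p = 0.155), and r = 0.42 without the 2 livers farthest from the median. By the array maker's suffix code, the probes of probe set 1 may match several transcripts. Which of the probe sets reads Mt1 better was not tested.

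The metal sensor Mtf1 was read by 3 tested probe sets, all near the limit for testing. Probe set 1 ranged from 4.79 to 5.49 log2 in APOE3, with a median of 5.36, and from 5.28 to 5.61 in APOE4, with a median of 5.45. Its difference was 0.21 (95% confidence interval -0.09 to 0.52), while that of probe set 2 was 0.15 (-0.07 to 0.37) and that of probe set 3 was -0.11 (-0.40 to 0.18). None passed (limma adjusted p = 0.716, 0.716 and 0.854). Without APOE3 replicate 2 probe set 1 gave 0.10, and without APOE3 replicate 5 probe set 3 gave -0.02. The signs differ between probe sets, and the remaining 2 probe sets of Mtf1 were under 4 on every array.

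Slc30a1 encodes ZnT1, the zinc exporter of the plasma membrane. By probe set 1 it was at 7.45, 8.38, 7.93, 7.80 and 7.93 log2 in APOE3 replicates 1 to 5. In APOE4 replicates 1 to 5 it was at 7.90, 8.22, 8.12, 8.55 and 7.73. APOE4 replicate 4 was the highest liver and APOE3 replicate 1 the lowest, with the others mixed. The difference was 0.21 (95% confidence interval -0.20 to 0.62; limma adjusted p = 0.795), so its mean did not share the sign of Mt1 and Mt2. It was 0.10 without APOE3 replicate 1 or APOE4 replicate 4 and 0.33 without APOE3 replicate 2. The dimmer probe set 2 gave -0.10 (-0.45 to 0.24; limma adjusted p = 0.890).

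Slc30a10 encodes ZnT10, which exports manganese from hepatocytes and is named with the zinc transporters for its sequence. By probe set 1 it was at 7.07, 6.42, 8.46, 7.30 and 7.30 log2 in APOE3 replicates 1 to 5, and at 8.39, 6.44, 8.86, 8.04 and 8.11 in APOE4. In each genotype replicate 2 was the lowest and replicate 3 the highest. The means were 7.31 ± 0.73 and 7.97 ± 0.91 (SD, n = 5 each), a difference of 0.66 (95% confidence interval -0.33 to 1.65; limma adjusted p = 0.724). Probe set 2 gave 0.78 (-0.30 to 1.86; limma adjusted p = 0.705) and read 5.58 in APOE3 replicate 2. Without APOE3 replicate 2 these differences were 0.44 and 0.39, and without APOE4 replicate 2 they were 1.04 and 1.11. Without APOE4 replicate 3 probe set 1 gave 0.44.

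The probe sets of Slc30a10 ordered the animals alike, with r = 0.94 over the 10 livers (permutation p = 3e-05; adjusted p = 0.00015) and rho = 0.93 (permutation p = 0.00033), and r = 0.95 without the 2 livers farthest from the median. Their pooled SDs within genotype, 0.83 and 0.91, exceeded those of 98.4% and 98.9% of tested probe sets, whose median was 0.23. Both SDs were larger than the genotype differences of the same probe sets. These SDs take no account of the replicate number, which the lowest and the highest livers shared between genotypes.

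**Figure D2:**
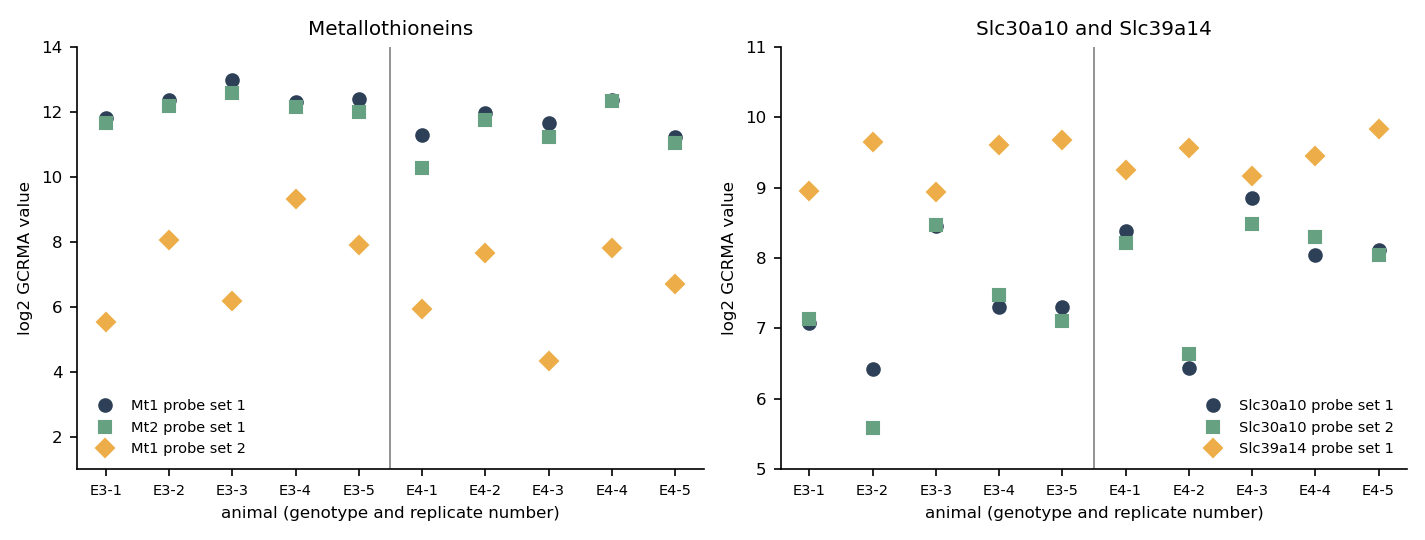
Log2 value (vertical axis) in each of the 10 livers (horizontal axis, E3 for APOE3 and E4 for APOE4, with the replicate number); one symbol per probe set. Mt2 follows Mt1 probe set 1 from liver to liver, Mt1 probe set 2 gives another order, and both Slc30a10 probe sets are low in replicate 2 of either genotype.

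None of the importers passed the test. Slc39a14 encodes ZIP14, a zinc, iron and manganese importer of hepatocytes that interleukin 6 induces. It ranged from 8.94 to 9.68 log2 in APOE3 with a median of 9.61, and from 9.16 to 9.83 in APOE4 with a median of 9.45. Its difference was 0.08 (95% confidence interval -0.34 to 0.50; limma adjusted p = 0.932). The APOE3 livers fell apart into replicates 1 and 3 near 8.95 and 8.94 and the others at 9.61 or above, and in APOE4 replicates 1 and 3 were again the lowest.

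Slc39a8 encodes ZIP8, which returns manganese from bile to the hepatocyte. It ranged from 8.46 to 8.90 in APOE3 and from 8.21 to 9.09 in APOE4, with a difference of -0.02 (95% confidence interval -0.36 to 0.33; limma adjusted p = 0.984). Slc39a4 encodes ZIP4, the intestinal zinc importer, and was read well above 4 in these livers. It ranged from 6.61 to 7.38 in APOE3 and from 6.89 to 7.54 in APOE4, with a difference of 0.11 (95% confidence interval -0.28 to 0.50; limma adjusted p = 0.902). Slc39a4 was lowest in replicate 2 of each genotype. Differences as large as these bounds are not excluded. Slc39a8 probe set 2 had 5 APOE3 and 3 APOE4 livers under 4 and was not tested.

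Read by their highest probe sets, Cp and Atp7b varied least of the 10 genes between animals of one genotype. Cp encodes ceruloplasmin, the main copper protein of plasma and a ferroxidase. Probe set 1 was at 12.60, 12.75, 12.78, 12.66 and 12.71 log2 in APOE3 replicates 1 to 5 and at 12.66, 12.55, 12.71, 12.65 and 12.64 in APOE4. Its difference of -0.06 had a 95% confidence interval from -0.23 to 0.12 (limma adjusted p = 0.875), and its pooled SD of 0.07 was below that of nearly all tested probe sets (1.13% were smaller). Probe sets 2, 3 and 4, also above 11 on every array, gave differences of -0.09, -0.06 and 0.00. The dimmer Cp probe sets 5 and 6 were at 0.21 and 0.14, with wider intervals (-0.33 to 0.74 and -0.21 to 0.48). They were 0.02 without APOE3 replicate 4 and 0.02 without APOE3 replicate 1. The other 2 Cp probe sets had means of at most 3.90 and were not tested.

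Atp7b, the copper ATPase altered in Wilson disease, was at 7.14, 7.32, 7.13, 6.99 and 7.05 log2 in APOE3 replicates 1 to 5 and at 6.97, 7.20, 7.03, 7.14 and 7.08 in APOE4. The groups overlapped almost fully, and the difference was -0.04 (95% confidence interval -0.24 to 0.16; limma adjusted p = 0.926). Its other 2 probe sets were under 4 on every array. Near the limit for testing, the lowest tested mean of any of the 10 genes was 4.66 (Cp probe set 6) and the highest untested mean 3.90 (Cp probe set 7).

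**Figure D3:**
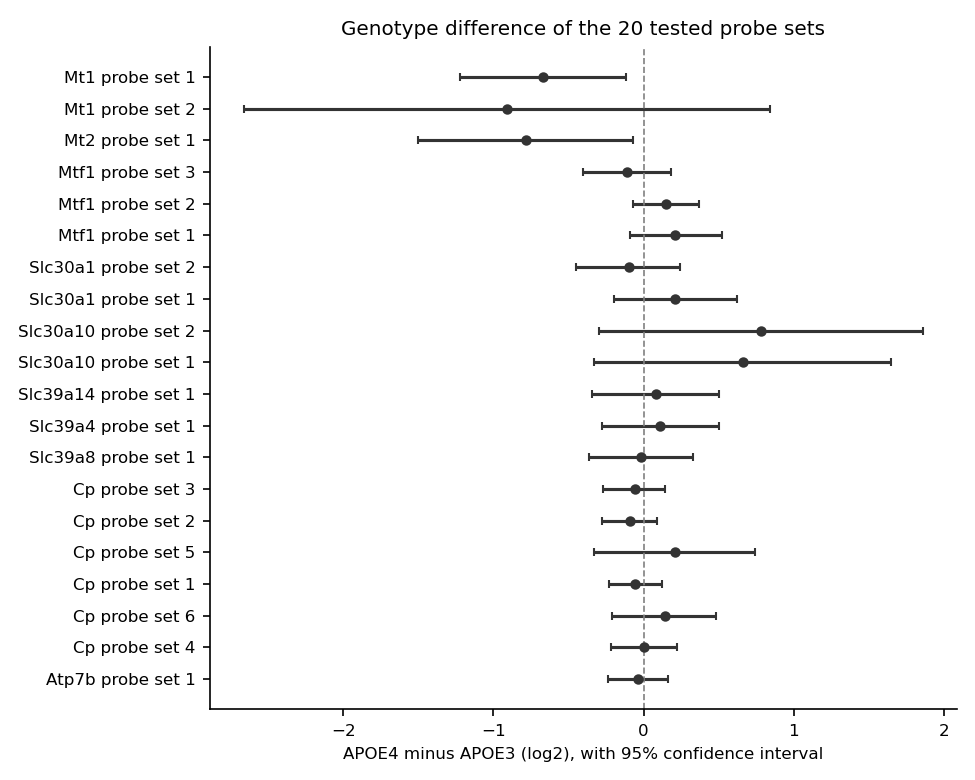
APOE4 minus APOE3 difference in log2 (horizontal axis) for the 20 tested probe sets of the 10 genes, with the 95% confidence interval from limma over 5 and 5 animals. The intervals of Mt1 probe set 1 and Mt2 exclude 0 before adjustment, the widest is that of Mt1 probe set 2, and those of Cp probe set 1 and Atp7b stay within 0.24 of 0.

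Across animals, Mt1 read by probe set 1 and Mt2 varied together, and this was the 1 relation of 13 that passed. Over the 10 livers r was 0.93 (permutation p = 7e-05; adjusted p = 0.00091 over 13 relations) and rho 0.92 (permutation p = 0.0005; adjusted p = 0.0065), and r was 0.94 without APOE4 replicates 1 and 5, the livers farthest from the Mt1 median. Taken as deviations from each genotype's mean, r was 0.89 (exact permutation within genotype, p = 0.00201; adjusted p = 0.0261) and rho 0.88 (exact permutation p = 0.00479; adjusted p = 0.0587). With Mt1 probe set 2 the relation to Mt2 was r = 0.51 (permutation p = 0.137, adjusted p = 0.356). The probes of Mt1 probe set 1 may match several transcripts, and whether they also read Mt2 was not tested. The labels give no batch, so the relation could not be taken within batches. None of the permutation tests of relations took the replicate number into account.

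For Slc30a1 the relation to the metallothioneins depended on whether the genotype means were taken out. By probe set 1 of each gene, the order of the 5 APOE4 livers from low to high was replicates 5, 1, 3, 2 and 4 for Mt1 and the same for Slc30a1. Other probe sets gave other orders: replicates 5, 2, 1, 4 and 3 for Slc30a1 probe set 2, and 3, 1, 5, 2 and 4 for Mt1 probe set 2. For Mt2 it was 1, 5, 3, 2 and 4. In APOE3 replicate 1 was the lowest and replicate 4 the next for both genes by probe set 1, but replicate 3 led for Mt1 and replicate 2 for Slc30a1. Over all 10 livers r was 0.31 with Mt1 (permutation p = 0.382; adjusted p = 0.621) and 0.31 with Mt2 (permutation p = 0.381; adjusted p = 0.621), and rho was 0.45 (permutation p = 0.192) and 0.48 (permutation p = 0.168). As deviations from the genotype means r was 0.73 with Mt1 (exact permutation p = 0.0260; adjusted p = 0.142) and 0.68 with Mt2 (exact permutation p = 0.0328; adjusted p = 0.142), and rho was 0.84 (exact permutation p = 0.00903; adjusted p = 0.0587) and 0.77 (exact permutation p = 0.0197; adjusted p = 0.0854). Neither passed after adjustment over the 13 relations. Without the 2 livers farthest from the median, r of the deviations was 0.77 with Mt1 and 0.60 with Mt2, while r over all livers became 0.13 and 0.21. With Slc30a1 probe set 2 in place of probe set 1, r over all livers was 0.38 with Mt1 (permutation p = 0.286) and 0.23 with Mt2 (permutation p = 0.522), and -0.19 and -0.36 without the same 2 livers. The Slc30a1 probe sets correlated at r = 0.42 with each other (permutation p = 0.228; adjusted p = 0.285) and rho = 0.60 (permutation p = 0.0737), and at r = 0.49 without the 2 farthest livers.

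**Figure D4:**
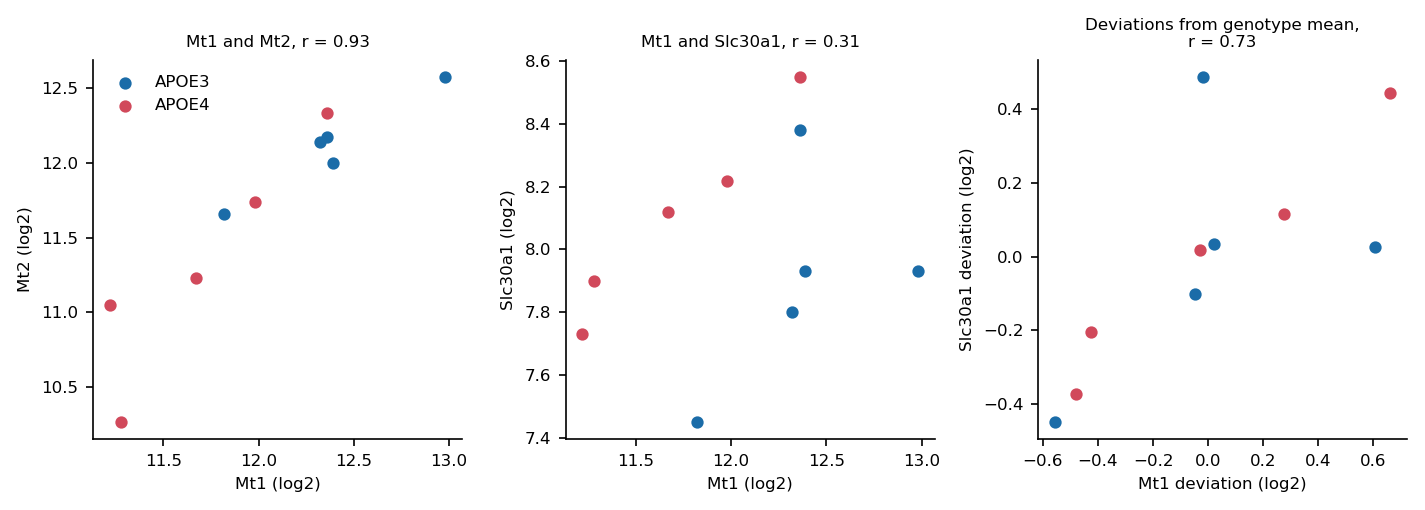
Each point is one liver, coloured by genotype, with log2 values or log2 deviations from the genotype mean on both axes. By probe set 1 of each gene, Mt1 and Mt2 lie along one line (r = 0.93). Slc30a1 rises with Mt1 from point to point among the APOE4 livers. The APOE3 livers share replicates 1 and 4 as the lowest for both genes, but not the rest of the order. For Slc30a1 and Mt1 r was 0.31 over all livers and 0.73 as deviations.

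None of the other relations of Mt1 or Mt2 to Slc30a10, Slc39a14, Slc39a4, Slc39a8 and Mtf1 passed. Slc39a4 ran against the metallothioneins, with r = -0.51 for Mt1 (permutation p = 0.132; adjusted p = 0.429) and -0.54 for Mt2 (permutation p = 0.107; adjusted p = 0.429), and rho = -0.47 (permutation p = 0.179) and -0.62 (permutation p = 0.0606). Without APOE4 replicates 1 and 5 these r over all livers were -0.07 and -0.06. As deviations from genotype means r was -0.52 for Mt1 (exact permutation p = 0.150; adjusted p = 0.325) and -0.54 for Mt2 (exact permutation p = 0.116; adjusted p = 0.302), with rho -0.54 (exact permutation p = 0.141; adjusted p = 0.367) and -0.72 (exact permutation p = 0.0448; adjusted p = 0.146). Without the 2 livers farthest from the median of the deviations r was -0.67 and -0.59. Slc39a8 and Mt2 gave r = 0.57 (permutation p = 0.0900; adjusted p = 0.429) and rho = 0.35 (permutation p = 0.329), and r = 0.07 without the same livers. For Slc30a10 r was -0.22 with Mt1 (permutation p = 0.545) and -0.35 with Mt2 (permutation p = 0.331), with rho -0.16 (permutation p = 0.657) and -0.22 (permutation p = 0.537). For Slc39a14 r was -0.14 with Mt1 (permutation p = 0.686) and 0.01 with Mt2 (permutation p = 0.986).

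As a description, 8535 genes were ranked by the correlation of their deviations from the genotype means with those of the mean of Mt1 and Mt2. Behind Mt2 (r = 0.98) and Mt1 (r = 0.96) themselves came Rabep1 (0.91), Apob (0.90), Mbtd1 (0.90), Blzf1 (0.90), Cyp4a14 (0.89), Pgap1 (0.88), Ric1 (0.87) and Ggact (0.87). Apob encodes the core protein of very low density lipoprotein and Cyp4a14 a fatty acid hydroxylase. All points come from the same 10 arrays, normalized together, and no test was made. At the other end of the ranking came Pold2 (-0.97), Taf11 (-0.96) and Fads1 (-0.92), each farther from 0 than Rabep1. Slc30a1 ranked 95 (r = 0.72), Slc39a8 389 (0.59), Atp7b 1133 (0.40), Cp 2509 (0.18) and Mtf1 2544 (0.18). Slc39a14 ranked 3717 (0.03), Slc30a10 4415 (-0.05) and Slc39a4 7881 (-0.55).

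Other genes of metal handling were taken from a list. Of 19 further zinc transporter genes all were on the array and 11 were tested, 6 above and 5 below 0, with a median of 0.02 log2 and 0 past the threshold in either direction. The lowest p belonged to Slc39a9, which encodes a ZIP transporter of the secretory pathway. It was at 7.98, 8.00, 7.84, 8.05 and 7.74 log2 in APOE3 replicates 1 to 5 and at 8.11, 8.07, 8.06, 8.36 and 8.14 in APOE4. All 5 APOE4 livers lay above all APOE3 livers, by 0.01 at the closest, and 2.02% of all tested probe sets were likewise free of overlap. The difference was 0.23 (SE 0.10, limma adjusted p = 0.599). It was 0.17 with repeated quantile normalization (limma adjusted p = 0.760) and 0.17 with centred arrays (limma adjusted p = 0.748). Slc30a6 was at 0.21 (0.13 without APOE3 replicate 4). Slc39a10 was at 0.36 (0.12 without APOE3 replicate 3 and 0.17 without APOE4 replicate 1). Mt3, the metallothionein of brain, and Mt4, that of squamous epithelium, had means under 4 and were not tested.

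Of 15 genes on the array that were listed for copper handling 14 were tested, 10 above and 4 below 0, with a median of 0.10 and 0 past the threshold. The 10 include Mmgt1 (0.14), a gene named for magnesium transport. Sco2, which delivers copper to cytochrome c oxidase, was at 9.87, 9.25, 9.96, 9.98 and 9.78 log2 in APOE3 replicates 1 to 5 and at 8.91, 8.96, 9.30, 9.31 and 9.18 in APOE4. Only APOE3 replicate 2 lay within the APOE4 range. Its difference of -0.64 (SE 0.15) did not pass (limma adjusted p = 0.396), and without 1 animal the adjusted p ran from 0.0685 to 0.652. Sco1, its relative, was at 0.31 (0.16 without APOE4 replicate 3) and Sod1, the copper and zinc superoxide dismutase, at 0.14, both on the other side of 0.

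Readouts of the known inducers of metallothionein genes were given beside them. Of 8 glucocorticoid target genes 7 were below 0 and 1 above, with a median of -0.18, and Per1 (-0.56), Sgk1 (-0.26) and Errfi1 (-0.19) had the lowest p. The 7 include Fkbp5 at -0.04 and Pck1 at -0.05. In the likeness ranking the 8 genes ran from r = -0.14 (Per1) to 0.47 (Sgk1). Without 1 animal Per1 ran from -0.76 to -0.28 (the latter without APOE3 replicate 5), Sgk1 from -0.48 (without APOE4 replicate 3) to -0.11 (without APOE3 replicate 3) and Errfi1 from -0.44 (without APOE3 replicate 2) to -0.03 (without APOE3 replicate 3). Of 15 genes listed for interleukin 6 and the acute phase 9 were above and 6 below 0, with a median of 0.03. Il6ra (-0.09), the gene of the interleukin 6 receptor, is among the 6. Apcs was at 0.47, Hamp at -0.29 and Saa3 at -0.35. Hamp was at 11.92 log2 in APOE4 replicate 4 and its difference was -0.02 without that liver, and that of Saa3 was 0.01 without APOE3 replicate 2. Of 6 oxidant and heme response genes 3 were above and 3 below 0, with a median of -0.11; Hmox1 was at -1.16, Nqo1 at -0.40 and Srxn1 at -0.27. Hmox1 was at 9.15 log2 in APOE3 replicate 4, and its difference was -0.57 without that liver. In limma 0 of these genes passed in either direction. Their part in the metallothionein values was not tested.

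Hepatocyte markers were read high in every liver. All 8 were tested, and their summed level lay between 16.52 and 16.75 log2 in APOE3 and between 16.59 and 16.70 in APOE4. The cholangiocyte genes Krt19, Krt7, Epcam and Cftr, the lymphocyte genes Cd3e, Cd3g, Cd79a and Nkg7, the pancreas genes Cpa1, Ctrb1 and Cel, the enterocyte genes Vil1, Lct and Alpi and the adipocyte genes Adipoq and Lep were under 4 on every array. Other genes of these lists were read higher, with means of 7.58 log2 for Ptprc, 8.50 for Cela1, 11.91 for Fabp2 and 12.43 for Apoa4. Fabp4 had a mean of 8.86, Car3 13.58 and Sox9 3.64, with 4.09 in APOE4 replicate 4. Of 6 endothelial markers 3 were above and 3 below 0. Of 4 tested stellate markers 3 were above and 1 below, and 0 of either list passed. Cdh5 (-0.34) and Lrat (0.75) had the lowest p of these 2 lists (limma adjusted p = 0.565 and 0.452). Of 8 Kupffer cell markers 7 were below 0 and 0 passed, and the summed level ran from 12.17 to 13.37 in APOE3 and from 11.99 to 12.81 in APOE4. The scavenger receptor gene Marco, singled out after its values were seen, was at 9.99 in APOE3 replicate 4, the liver in which Mt1 probe set 2 and Hmox1 were also highest. Without that animal the difference was -0.68 for Mt1 probe set 1, -0.42 for Mt1 probe set 2 and -0.57 for Hmox1. The part of the Kupffer cell markers in these differences was not tested. Array medians over all probe sets lay between 2.64 and 2.673 log2 in APOE3 and between 2.616 and 2.639 in APOE4. Every APOE4 median was thus lower, but these medians lie under 4, where differences have no sure scale. Over the tested probe sets the median difference was 0.047, so higher in APOE4. With arrays centred on the median of the tested probe sets, Mt1 was at -0.73 and Mt2 at -0.84. The 3' minus 5' difference of the Gapdh control probe sets lay between 0.203 and 0.729. That of the Actb control probe sets lay between 2.223 and 3.196. Both were highest in APOE3 replicate 2 and next in APOE4 replicate 4 (0.617 for Gapdh and 2.966 for Actb). These livers also had the highest values of Slc30a1 probe set 1 (8.38 and 8.55), and the part of the controls in its relations was not tested. The part of either control in the differences was not tested.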

How the data were processed

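Liver RNA of 10 mice was measured on one-colour arrays, with groups and replicate numbers taken from the sample titles. The deposited values are log2 expression values. Per the submitters' processing notes, the authors used GCRMA 2.12.1 and R 2.7.1; this method corrects background by probe sequence, scales arrays to each other and summarises a probe set as 1 value. Differences among values under about 4 log2 have no sure scale, and levels of different probe sets were not compared.

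After removal of 64 control probe sets, the 14732 probe sets with a mean of at least 4 over all arrays were tested with lmFit and eBayes of limma 3.58.1, run in R 4.3.3 (two-sided, no covariate, Benjamini-Hochberg over all 14732, threshold 0.05). The fit was tested on simulated data. Relations across animals used Pearson's r and Spearman's rho on probe set 1 of each gene, with two-sided permutation tests of 100000 resamples, or exact permutation within genotype for deviations. Genes outside the 10 are named where they passed or, where none passed, as the 3 with the smallest p of each list. Some further list genes (Mmgt1, Fkbp5, Pck1 and Il6ra among them) and cell type markers are named to describe the lists. Likeness names the first 10 genes, those at the other end, the rest of the genes described here and the range of the glucocorticoid targets. The value table had 0 columns of no sample. Array number limits the precision. Promoters came from RefSeq, GRCm38.p6.

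The 10 genes, the lists and the tests were chosen with earlier results of these data known. Replicate numbers were checked for pairing: same-numbered animals correlated between -0.079 and 0.414 in their deviations, and 2 of 5 pairs correlated best with their own number. They were not treated as pairs in the main fit or in the relations. Alternatives were no filter, a filter at 6, trend and robust settings, array weights, repeated quantile normalization, centred arrays, a floor at 4, each animal left out in turn and a replicate block; other probe sets of Mt1, Slc30a1 and Slc30a10 were tried after seeing the data.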

Additional observations from a re-analysis of the deposited data

Results flagged for a closer look

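Of 92 groups of 5 values checked for an animal far from the rest of its genotype, 4 stood out, and chance gives about 1 in 20. Slc30a10 probe set 2 was at 6.63 log2 in APOE4 replicate 2, against 8.05 to 8.49 in the other APOE4 livers. Slc39a9 was at 8.36 in APOE4 replicate 4, against 8.06 to 8.14. Slc39a10 was at 5.28 in APOE4 replicate 1, against 4.25 to 4.40, and its mean difference of 0.36 was not past the threshold. Sco2 was at 9.25 in APOE3 replicate 2, against 9.78 to 9.98 in the other APOE3 livers.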

How the results depend on the processing

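No probe set of the 10 genes passed the threshold in any of 18 alternative fits (adjusted p of 0.309 or more in limma). Over all genes the 12 calls became 5 with a filter at a mean of 6, where fewer probe sets are tested, and 8 to 14 without 1 animal. Mt1 ran from -0.84 to -0.52 and Mt2 from -1.04 to -0.52 without 1 animal, both always below 0. With the replicate number as a block Mt1 was at -0.67 (adjusted p = 0.512), Mt2 at -0.78 (0.509), and 11 probe sets were called over all genes; 2 of 5 number pairs correlated best with their own number. The block lowered the SE of Slc30a10 from 0.45 to 0.18 and from 0.49 to 0.17 for probe sets 1 and 2 (adjusted p = 0.50 and 0.41), that of Mt1 probe set 2 from 0.80 to 0.32, of Slc39a14 from 0.19 to 0.11 and of Slc39a4 from 0.18 to 0.10, and changed no call of the 10 genes.

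The differences whose sign turned were 0.11 or less in size apart from Saa3 (-0.35), and the cause was not tested. Slc39a8 was at 0.04 with array weights, and Cp probe set 4 at -0.01 with array weights, -0.04 with repeated quantile normalization and -0.06 with centred arrays. Without 1 animal the ranges spanned 0 for Slc30a1 probe set 2 (-0.21 to 0.02), Slc39a14 (-0.02 to 0.16), Slc39a4 (-0.02 to 0.19), Slc39a8 (-0.12 to 0.10), Cp probe set 4 (-0.06 to 0.04), Atp7b (-0.08 to 0.01) and Saa3 (-0.55 to 0.01, the latter without APOE3 replicate 2).

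The relation of Mt1 to Mt2 was 0.92 to 0.96 without 1 animal, and 0.51, past no threshold, with Mt1 probe set 2, an alternative chosen after seeing the data. As deviations from genotype means r turned to 0.07 for Mt1 and Slc30a10, 0.26 for Mt1 and Mtf1 and 0.11 for Mt2 and Mtf1. With Mt1 probe set 2 it turned to 0.69 for Slc39a14 and -0.17 for Slc39a8. Without 1 animal r spanned 0 for Mt1 and Slc39a14 (-0.27 to 0.24), Mt1 and Mtf1 (-0.26 to 0.09) and Mt2 and Slc39a14 (-0.19 to 0.30).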

Other observations

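The manganese carriers of the hepatocyte were set against each other in 3 relations chosen after their values were seen, and none passed. Slc30a10, the exporter, and Slc39a14, the importer from blood, gave r = -0.41 over the 10 livers (permutation p = 0.239; adjusted p = 0.717), rho = -0.39 (permutation p = 0.262) and r = -0.24 without the 2 livers farthest from the Slc30a10 median. As deviations from genotype means r was -0.51 (exact permutation p = 0.147; adjusted p = 0.441). Slc30a10 and Slc39a8 gave r = 0.05 (permutation p = 0.889; adjusted p = 0.889) and rho = 0.09 (permutation p = 0.810). Slc39a14 and Slc39a8 gave r = -0.25 (permutation p = 0.491; adjusted p = 0.736) and rho = -0.44 (permutation p = 0.204).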
